A study of Mus musculus with 9 samples.

Results

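The Teddm genes encode transmembrane epididymal proteins, and all 4 mouse genes of that name (Teddm1a, Teddm1b, Teddm2 and Teddm3) were found by symbol among the 24346 genes of an RNA-seq table of the mouse IS-caput epididymis. Each gene of the family was measured in 9 libraries, 3 from Nicol-/- males, 3 from Ros1-/- males and 3 from Nicol+/- males, all 14 weeks old. Nicol-/- mice lack all exons of Nicol, listed in the table under the symbol Gm1673, and were made by genome editing on a B6D2F1 background. Ros1-/- mice lack the receptor tyrosine kinase ROS1. The Nicol+/- males, which still carry 1 disrupted Nicol allele, served as controls for both knockouts, and no library of a Ros1 control was analysed here, so the loss of Ros1 and a difference between the mouse lines cannot be told apart. The initial segment (IS) was dissected along with the caput in every genotype. The members were chosen by name after their RPKM values in these libraries were known to differ between genotypes, so the levels and differences of the 4 genes are given as a description and carry no test.

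In the epididymis, the IS is the proximal segment next to the efferent ducts, and the caput follows it. The IS epithelium differentiates after birth in response to lumicrine signalling, in which proteins secreted by the testis, NELL2 with its cofactor NICOL, travel down the lumen and act on ROS1 at the epithelial surface. ERK and the ETS-family transcription factors ETV1, ETV4 and ETV5 act downstream in these cells. TEDDM proteins are multi-pass membrane proteins related to the TMEM45 proteins, and their name comes from their expression in the epididymis. What they do in the epididymal epithelium is not well known.

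On mm10, Teddm2, Teddm1b and Teddm1a lie side by side on chromosome 1 within 43.5 kb, while Teddm3 lies alone on chromosome 16. In the RefSeq models each is a single exon: Teddm2 (NCBI gene 240817) occupies chr1:153849542-153851195 on the minus strand, Teddm1b (433365) occupies chr1:153874345-153876871 on the plus strand, Teddm1a (240819) occupies chr1:153891646-153893060 on the plus strand, and Teddm3 (66561) occupies chr16:21152659-21153944 on the minus strand. The gap between Teddm2 and Teddm1b is 23.1 kb and that between Teddm1b and Teddm1a is 14.8 kb. GENCODE M21 adds longer Teddm2 transcripts whose first exons lie beyond Teddm1a, so that the Teddm2 gene of that annotation spans both Teddm1 genes on the opposite strand. The values in the table were computed on the short model: the ratio of normalized count to RPKM gave a length of 1654 bases for Teddm2, that of its single RefSeq exon.

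Teddm1a and Teddm1b are close copies of each other. Their coding sequences of 915 and 918 bases were identical at 86.9% of aligned positions, whereas every other pair of the family was between 49.5% and 54.0%. The longest stretch without a difference was 159 bases, longer than a read, and it is shown here with 40 coding bases on either side because it is where reads cannot be assigned to one copy. Capitals mark the 3 positions at which the copies differ, and both sequences are read from GENCODE M21 on mm10, plus strand, chr1:153892463-153892701 for Teddm1a (coding bases 672 to 910) and chr1:153875121-153875359 for Teddm1b (coding bases 675 to 913).
Teddm1a: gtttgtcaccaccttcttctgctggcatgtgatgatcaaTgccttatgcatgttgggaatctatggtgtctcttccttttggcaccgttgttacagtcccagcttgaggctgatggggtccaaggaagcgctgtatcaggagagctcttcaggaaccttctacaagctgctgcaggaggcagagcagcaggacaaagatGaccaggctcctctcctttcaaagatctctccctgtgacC
Teddm1b: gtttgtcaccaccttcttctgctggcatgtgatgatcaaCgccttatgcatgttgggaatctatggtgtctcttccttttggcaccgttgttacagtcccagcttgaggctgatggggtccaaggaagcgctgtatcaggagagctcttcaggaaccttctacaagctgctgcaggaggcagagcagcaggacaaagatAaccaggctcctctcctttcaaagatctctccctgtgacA

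Across the whole transcripts, 69 windows of the read length were shared between Teddm1a and Teddm1b. Counted against all GENCODE transcripts, 525 of the 1217 windows of Teddm1a also occur in another gene (Teddm1b or the annotated locus Gm38352), as do 73 of 2427 windows of Teddm1b, none of 1554 windows of Teddm2 and 432 of 1246 windows of Teddm3. The Teddm3 windows are shared with Gm6551 and Gm6557. The windows were compared with transcripts on either strand, and whether the other genes overlap the members at the same genomic place was not checked. A window shared in that way need not be a second match on the genome. Neither the treatment of reads with more than 1 match nor the use of strand in counting is stated in the paper or labels. Levels of Teddm1a, Teddm1b and Teddm3 are therefore uncertain, by a part of these shared windows that was not determined, while Teddm2 has none of them in another gene.

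Upstream of the 3 clustered genes the sequences are unlike each other. The 250 bases before each RefSeq start are printed because the values of Teddm1a and Teddm2 did not overlap between either knockout and the controls while those of Teddm1b did. Such a fall without overlap was seen in 20.2% of tested genes in Nicol-/- and 23.8% in Ros1-/-. A further reason is that transcription factors of the ETS family and the androgen receptor are known regulators in this tissue. Capitals mark matches on either strand to AGGAAG, an ETS core preceded by A, or to TGTTCT, an androgen receptor half-site. The promoters are from RefSeq on GRCm38.p6, at chr1:153891396-153891645 on the plus strand for Teddm1a, chr1:153851196-153851445 on the minus strand for Teddm2 and chr1:153874095-153874344 on the plus strand for Teddm1b.
Teddm1a: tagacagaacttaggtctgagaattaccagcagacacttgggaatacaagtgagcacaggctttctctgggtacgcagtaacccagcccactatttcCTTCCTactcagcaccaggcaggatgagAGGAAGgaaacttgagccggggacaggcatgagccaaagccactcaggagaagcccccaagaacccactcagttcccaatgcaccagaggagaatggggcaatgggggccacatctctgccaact
Teddm2: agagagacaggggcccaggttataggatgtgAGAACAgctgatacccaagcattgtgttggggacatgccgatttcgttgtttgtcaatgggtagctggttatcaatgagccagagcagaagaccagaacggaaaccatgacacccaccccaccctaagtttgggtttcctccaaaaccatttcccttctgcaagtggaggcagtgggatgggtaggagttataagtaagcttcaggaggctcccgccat
Teddm1b: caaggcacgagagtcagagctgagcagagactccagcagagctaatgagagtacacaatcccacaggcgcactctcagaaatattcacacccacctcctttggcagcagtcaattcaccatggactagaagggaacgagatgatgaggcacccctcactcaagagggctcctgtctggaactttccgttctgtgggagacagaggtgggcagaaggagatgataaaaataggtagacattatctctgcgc

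The Teddm1a window held AGGAAG beginning 125 bases before the start and its reverse complement CTTCCT beginning 153 bases before it. The Teddm2 window held AGAACA, the reverse complement of TGTTCT, beginning 219 bases before the start, and the Teddm1b window held neither motif as spelled. Only exact words were searched, so shorter forms of the ETS core are unmarked. The shorter CGGAA occurs in the Teddm2 window and its reverse complement TTCCG in the Teddm1b window. The corresponding window of Teddm3, not printed because that gene was barely detected, held AGGAAG beginning at position -132 from the start. The letters CGGAAG and TATAAA, searched on both strands as the other ETS core and the TATA box, were in none of the windows of the 4 genes. CGGAAG and AGGAAG share their last 5 letters. Such short words are common, since AGGAAG was found in 29.5% of 32851 mouse promoter windows of the same 250 bases, TGTTCT in 16.1%, CGGAAG in 13.6% and TATAAA in 12.4%. Although their coding sequences are close, the windows of Teddm1a and Teddm1b were identical at 50.9% of aligned positions, against 47.1% for Teddm1a and Teddm2.

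Levels are given as RPKM, a count of reads corrected for exon length and library size, which the authors calculated per gene and scaled between libraries. Differences are on the log2(RPKM + 1) scale, from a limma fit to all 9 libraries over the 13647 genes that had at least 1 RPKM in at least 3 libraries, and their standard errors (SE) come from that fit. Of the 4 Teddm genes, 3 passed this filter and Teddm3 did not. By genotype, estimated depth was 8721248 to 15153124 reads for Nicol-/-, 11540328 to 15500664 for Ros1-/- and 8189631 to 16595565 for Nicol+/-. Markers of IS principal cells (Lcn8, Lcn9, Cst8, Adam28 and Ros1, 5 of 5 tested) were called lower in both knockouts. They were chosen with earlier results of these data known, so their direction is no independent evidence. In the longer list of 15 genes known from the IS, 13 fell and 1, Ggt1, rose in each knockout. Of all tested genes, 11.9% were called lower in Nicol-/- and 13.3% in Ros1-/-. Ros1 is the gene targeted in Ros1-/-, so its fall there carries no information on cell types. The summed level of the 5 was 26.3 to 57.3 RPKM in Nicol-/-, 14.7 to 15.6 RPKM in Ros1-/- and 18160.2 to 28098.8 RPKM in Nicol+/- libraries. Of the 4 caput principal cell markers, 2 fell in Nicol-/- (Adam7, -0.72, and Crisp1, -3.8) and 1 in Ros1-/- (Crisp1, -4.7), and none rose. The Adam7 call (limma adjusted p = 0.0413) was lost with no filter (0.0929) and in a fit of the 6 libraries compared (0.1). It was also lost without Nicol+/- replicate 2 (0.07) or 3 (0.128), or without any 1 Ros1-/- library (0.0577 to 0.067). The summed level of the 4 was 37493.4 to 45270.1 RPKM in Nicol-/-, 47958.5 to 51841.7 in Ros1-/- and 36737.9 to 48314.3 in Nicol+/- libraries. Gm1673 was listed at 0 in every Nicol-/- library, against 16.6 to 19.6 RPKM in Ros1-/- and 6.05 to 9.09 RPKM in Nicol+/- libraries, and Ros1 was at 8.06 to 9.32 RPKM in Ros1-/-, 16.8 to 24.7 RPKM in Nicol-/- and 40.7 to 48.0 RPKM in Nicol+/- libraries. Markers of germ cells and sperm summed to 202 to 548 RPKM in Nicol-/-, 248 to 656 RPKM in Ros1-/- and 91.2 to 123 RPKM in Nicol+/- libraries, and those of efferent duct ciliated cells to 19.5 to 47.6, 14.0 to 18.4 and 8.3 to 13.8 RPKM. Smooth muscle markers summed to 516 to 573 RPKM in Nicol-/-, 286 to 315 RPKM in Ros1-/- and 279 to 400 RPKM in Nicol+/- libraries. Of 3 endothelial markers, 2 fell in Nicol-/- and 3 in Ros1-/-, and they summed to 11.9 to 13.5 RPKM in Nicol-/-, 10.2 to 11.4 RPKM in Ros1-/- and up to 26.7 RPKM in Nicol+/- libraries, which did not overlap with either knockout. Rn45s, a ribosomal RNA precursor, was at 1922.2 to 2579.1 RPKM in Nicol-/-, 4699.8 to 17294.4 RPKM in Ros1-/- and 592 to 1184.9 RPKM in Nicol+/- libraries, the highest being Ros1-/- replicate 3. The part of these markers in the Teddm values was not tested.

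**Figure D1:**
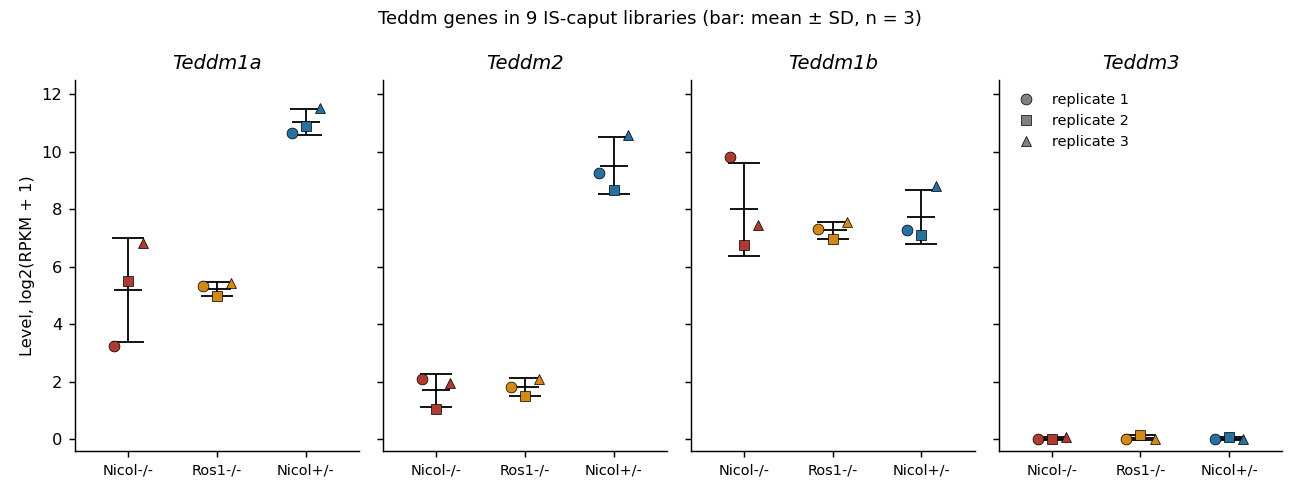
Level of each Teddm gene, as log2(RPKM + 1), in the 3 libraries of each genotype (points, 1 shape per replicate number) with the mean and SD of the 3 (bars). Teddm1a and Teddm2 sit far lower in both knockouts than in Nicol+/- libraries, Teddm1b overlaps among the genotypes, with Nicol-/- replicate 1 the highest at 899 RPKM, and Teddm3 is at or near 0 throughout.

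Teddm2 was the member with the largest fall. Its level was 3.24, 1.06 and 2.9 RPKM in the Nicol-/- libraries, 2.56, 1.82 and 3.3 RPKM in the Ros1-/- libraries and 613, 403 and 1543.1 RPKM in the Nicol+/- libraries. The libraries of either knockout did not overlap with those of the controls (as for 20.2% of tested genes lower in Nicol-/- and 23.8% lower in Ros1-/-), and the lowest control was 124 times the highest Nicol-/- library and 122 times the highest Ros1-/- library. In means, Teddm2 stood at 2.4 ± 1.17 RPKM in Nicol-/- and 2.56 ± 0.741 RPKM in Ros1-/-, against 853 ± 607 RPKM in Nicol+/- (SD, n = 3 each), so that control libraries averaged 355 times the Nicol-/- level and 334 times the Ros1-/- level. On the log2(RPKM + 1) scale the difference was -7.81 (SE 0.45) for Nicol-/- and -7.69 (SE 0.45) for Ros1-/-, the falls of order 10 and 13 among the 13647 genes. These low values rest on few reads, an estimated 44, 14 and 67 in the Nicol-/- libraries and 57, 40 and 52 in the Ros1-/- libraries, against 7576, 9520 and 34265 in the Nicol+/- libraries, so counting error is relatively larger in the knockouts.

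Teddm1a was the most abundant member in the control tissue and also fell strongly. Its level was 8.56, 44.6 and 113 RPKM in the Nicol-/- libraries, 39.1, 30.3 and 42.2 RPKM in the Ros1-/- libraries and 1606, 1890.5 and 2945.3 RPKM in the Nicol+/- libraries. No knockout library reached the controls (as for 20.2% of tested genes in Nicol-/- and 23.8% in Ros1-/-). The lowest control was 14.2 times the highest Nicol-/- library and 38.0 times the highest Ros1-/- library. The differences were -5.82 (SE 0.72) for Nicol-/- and -5.78 (SE 0.72) for Ros1-/-, the falls of order 16 and 19. Both SEs come from a spread pooled over the 3 genotypes, so 0.72 does not measure the spread of the Ros1-/- comparison alone. On the log2 scale the SD was 1.81 in Nicol-/-, 0.244 in Ros1-/- and 0.453 in Nicol+/-. Reads were assigned to Teddm1a in every knockout library, an estimated 97, 490 and 2181 in Nicol-/- and 727, 556 and 555 in Ros1-/-. Some may come from windows shared with Teddm1b, which held an estimated 19624 reads in Nicol-/- replicate 1. That part was not determined, so detection of Teddm1a in that library is not secure. The Nicol-/- libraries were spread 13.2-fold, replicate 1 being lowest and replicate 3 highest, while the Ros1-/- libraries were within 1.39-fold of one another.

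Teddm1b, which lies between the other clustered genes, showed no such separation between genotypes. Its level was 899, 106 and 172 RPKM in the Nicol-/- libraries, 156, 123 and 187 RPKM in the Ros1-/- libraries and 155, 136 and 450 RPKM in the Nicol+/- libraries. The 3 genotypes overlapped, with means of 392 ± 441 RPKM in Nicol-/-, 155 ± 32.1 RPKM in Ros1-/- and 247 ± 176 RPKM in Nicol+/- (SD, n = 3 each). The difference was 0.26 (SE 0.72) for Nicol-/- and -0.47 (SE 0.72) for Ros1-/-, and its sign turned in both when 1 library was left out: it was -0.65 without Nicol-/- replicate 1, -0.06 without Nicol+/- replicate 2 in the first comparison, and 0.08 without Nicol+/- replicate 3 in the second. The value in Nicol-/- replicate 1 rested on an estimated 19624 reads and was 0.999 above the highest other library on the log2 scale, the fourth largest such excess of that library among the 13647 genes. The SE of 0.72 leaves room for a change of either sign, and these libraries do not show that Teddm1b was unaffected. This SE is also pooled over the 3 genotypes, whose SDs on the log2 scale were 1.61 in Nicol-/-, 0.303 in Ros1-/- and 0.942 in Nicol+/-.

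Teddm3 was at most 0.122 RPKM in any library. Its listed values were 0, 0 and 0.0582 RPKM for Nicol-/-, 0, 0.122 and 0 RPKM for Ros1-/-, and 0, 0.0569 and 0 RPKM for Nicol+/-, which corresponds to between 0 and 2 estimated reads. In the 6 libraries at 0, that count allows up to 3 reads, or 0.181 to 0.326 RPKM for a gene of this length at their depth. The other 3 libraries, 1 of each genotype, held 1 or 2 estimated reads.

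As a description only, since these values prompted the choice of the genes, Teddm1a and Teddm2 were among the genes past the adjusted threshold of the fit as lower in Nicol-/- than in Nicol+/- (11.9% of all tested genes) and in Ros1-/- than in Nicol+/- (13.3%). None of the 3 members in the fit was past it between Ros1-/- and Nicol-/- (1.55% of genes in either direction). Nothing is read from these counts. The 2 knockouts share their 3 control libraries, so the 2 sets of differences are not independent. Set against each other, Ros1-/- minus Nicol-/-, the knockouts differed by 0.11 (SE 0.45) in Teddm2, 0.04 (SE 0.72) in Teddm1a and -0.73 (SE 0.72) in Teddm1b. Over all tested genes the median difference was 0.00452 for Nicol-/- and 0.014 for Ros1-/-. In whole tissue, fewer cells of a type and less RNA per cell cannot be told apart. The IS markers, chosen with earlier results known, fell in the same libraries as Teddm1a and Teddm2.

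**Figure D2:**
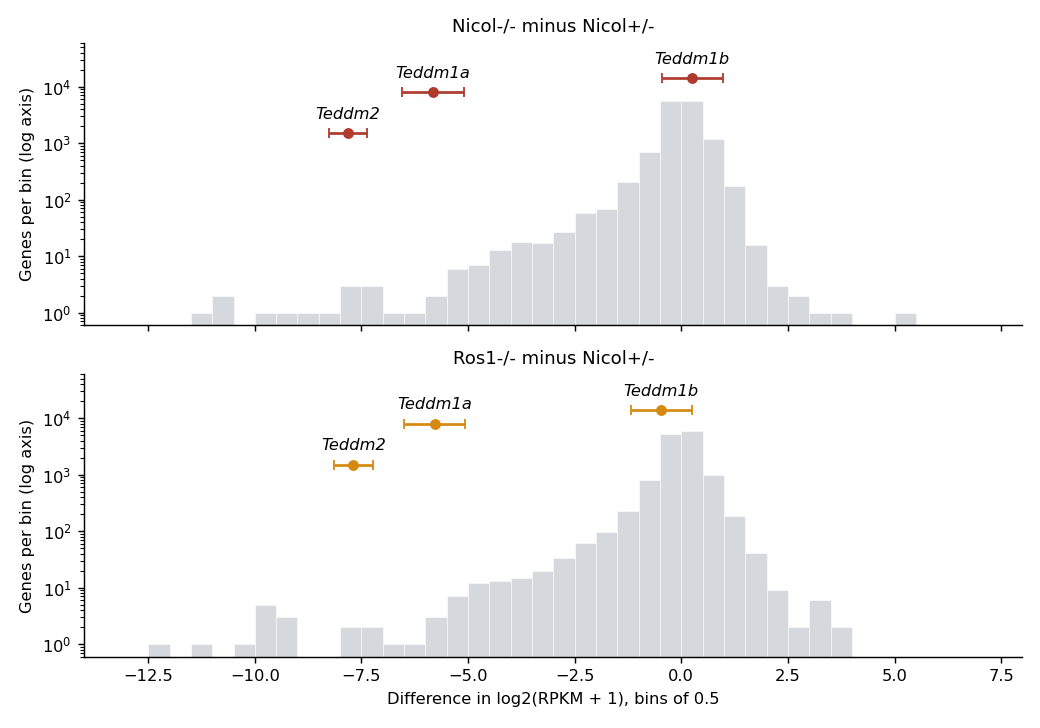
Number of genes (log axis) by their difference in log2(RPKM + 1) from Nicol+/-, in bins of 0.5, over the 13647 genes tested, for Nicol-/- (top) and Ros1-/- (bottom). Coloured points give the 3 tested Teddm genes with their SE, at an arbitrary height: Teddm2 (-7.81 and -7.69) and Teddm1a (-5.82 and -5.78) lie in the sparse left tail and Teddm1b (0.26 and -0.47) in the central mass.

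The order of the members within the family was not the same in the knockouts as in the controls. In each Nicol-/- and each Ros1-/- library the order of levels was Teddm1b, Teddm1a, Teddm2 and Teddm3, whereas in each Nicol+/- library it was Teddm1a, Teddm2, Teddm1b and Teddm3. Of the neighbouring ranks, Teddm1b and Teddm1a overlapped between libraries in Nicol-/- (the lowest Teddm1b value was 0.931 times the highest Teddm1a value) but not in Ros1-/- (2.9 times), and Teddm2 and Teddm1b overlapped in Nicol+/- (0.896 times). Teddm1a and Teddm2 were just separate in Nicol+/- (1.04 times). By mean level among all 24346 genes of the table, Teddm1a ranked 1438 in Nicol-/-, 2235 in Ros1-/- and 42 in Nicol+/-, Teddm2 ranked 11473, 11090 and 117 in the same genotypes, and Teddm1b ranked 225, 551 and 356.

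Summed over the 4 genes, the family reached 911, 151 and 288 RPKM in the Nicol-/- libraries, 198, 155 and 232 RPKM in the Ros1-/- libraries and 2373.8, 2429.8 and 4938.1 RPKM in the Nicol+/- libraries. The sum was lower in each knockout library than in any control library. Teddm1b made up 98.7%, 69.8% and 59.6% of the sum in the Nicol-/- libraries, 79.0%, 79.2% and 80.4% in the Ros1-/- libraries and 6.52%, 5.61% and 9.11% in the Nicol+/- libraries. The smallest of the 3 shares in the control tissue was the largest in all 6 knockout libraries. These shares depend on the falls of Teddm1a and Teddm2, which prompted the choice of the genes. They do not show a rise of Teddm1b, whose differences were 0.26 in Nicol-/- and -0.47 in Ros1-/- (SE 0.72 each). Relative to its near copy, Teddm1b was at 105, 2.37 and 1.51 times Teddm1a in Nicol-/-, 4.0, 4.05 and 4.43 times in Ros1-/- and 0.0964, 0.0721 and 0.153 times in Nicol+/- libraries. The knockout ratios varied far more in Nicol-/- than in Ros1-/-, with Nicol-/- replicate 1 holding both the lowest Teddm1a and the highest Teddm1b of the 6 knockout libraries. How far reads in shared windows affect the ratio of 105 was not determined.

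**Figure D3:**
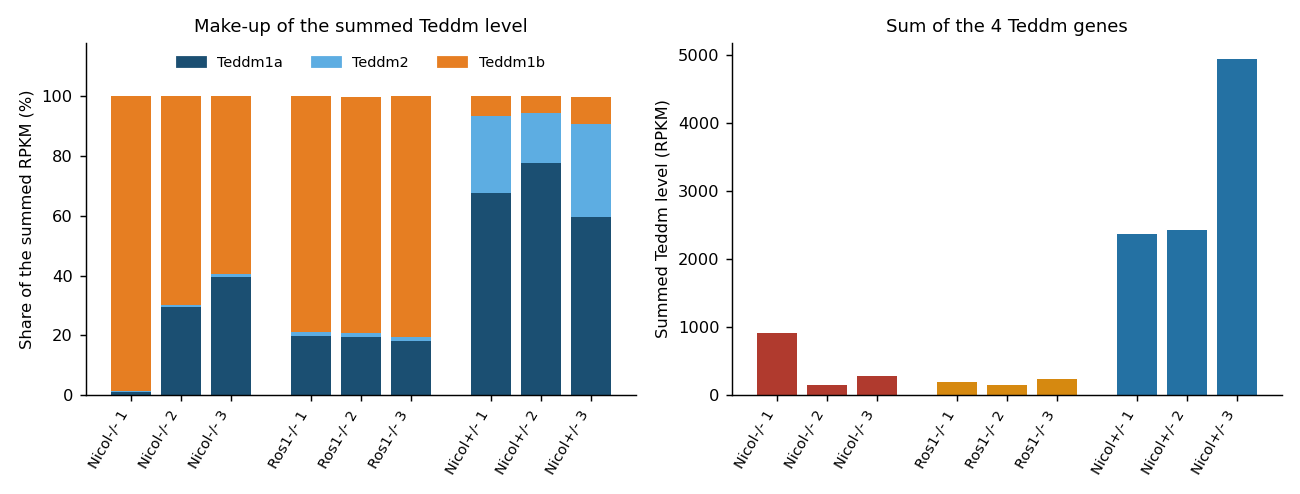
Left, share (%) of the summed RPKM of the family taken by Teddm1a, Teddm2 and Teddm1b in each of the 9 libraries (Teddm3 is too low to draw); right, the sum in RPKM. Teddm1b takes 59.6% to 98.7% in the 6 knockout libraries and 5.61% to 9.11% in the 3 Nicol+/- libraries, whose sums are the highest. A larger share is not by itself a higher level of Teddm1b.

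The genes with the profile most like each member were found by the Euclidean distance between log2 profiles centred on their mean over the 9 libraries, with Pearson's r as a description. For Teddm1a the 5 nearest were Gcnt4, Gm5916, Etv5, Dapl1 and St3gal2 (distance 2.15 to 2.68, r = 0.955 to 0.972). Gcnt4 and St3gal2 encode glycosyltransferases, and Etv5 encodes an ETS factor, which stood at 4.06 ± 1.69 RPKM in Nicol-/-, 1.81 ± 0.275 RPKM in Ros1-/- and 164 ± 26.5 RPKM in Nicol+/- (SD, n = 3 each). For Teddm2 they were Gm17677, Mir6244, Gm5916, Cst8 and Adam28 (distance 1.4 to 2.9, r = 0.986 to 0.994), of which Cst8 encodes a cystatin and Adam28 a membrane protease. Cst8 was at 3.78 ± 2.92 RPKM in Nicol-/-, 1.93 ± 0.166 RPKM in Ros1-/- and 2072.4 ± 231 RPKM in Nicol+/- (SD, n = 3 each). The names depended on the measure. By r alone, the 5 highest for Teddm1a were Tnfrsf1a, St6galnac2, Stx19, Ell3 and Igsf8 (r = 0.982 to 0.988). For Teddm2 they were Abcb9, Krt23, Gopc, Ddit4l and Runx2 (r = 0.996 to 0.997). None of these was among the 5 nearest by distance, whereas for Teddm1b the measures shared 3 of 5. Many genes ran parallel to Teddm1a and Teddm2, with r above 0.9 for 627 genes in the case of Teddm1a and 936 in that of Teddm2. For Teddm1b the same count was 4 genes, over the same 9 libraries, which were normalized together.

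The nearest profiles to Teddm1b were those of Dpt (distance 1.09, r = 0.922), BC026585 (1.3, r = 0.948), Ildr2 (1.64, r = 0.911), Folr1 (1.76, r = 0.795) and Syt2 (1.8, r = 0.786). Dpt encodes the extracellular matrix protein dermatopontin and Folr1 a folate receptor. Each of these genes had its highest level in Nicol-/- replicate 1, Folr1 at 15.2 RPKM against at most 7.2 RPKM in any other library and Dpt at 8.43 RPKM against at most 4.2 RPKM. None of the 5 was called between any 2 genotypes. Whether this library differs in the tissue it holds was not tested; in it, 3 genes stood at least 1 above all other libraries on the log2 scale, compared with 55 in Nicol-/- replicate 3.

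**Figure D4:**
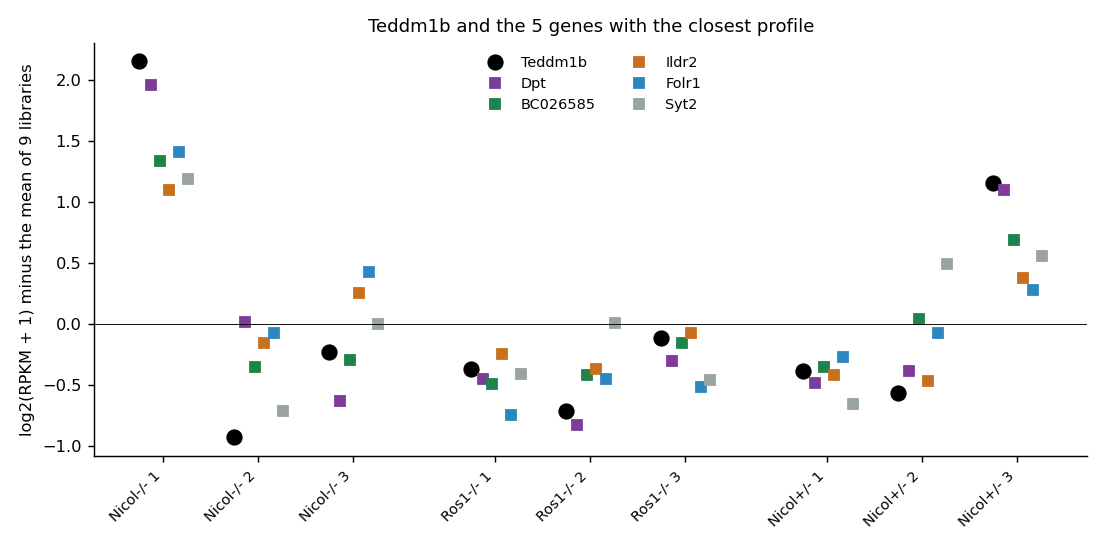
Level of Teddm1b (large black circles) and of the 5 genes with the closest profile (squares) in each library, as log2(RPKM + 1) minus the mean of the gene over the 9 libraries. All 6 genes are highest in Nicol-/- replicate 1, where Teddm1b is at 899 RPKM, and all lie above their mean in Nicol+/- replicate 3, where Teddm1b is at 450 RPKM.

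No tested gene within 500 kb of the chromosome 1 cluster was called lower in the fit of all 9 libraries. Of 14 further genes of the table within 500 kb of the cluster, 9 were tested, and by limma with Benjamini-Hochberg adjustment 3 rose, none fell and 6 were not called in either knockout against Nicol+/-, where 8.95% of all tested genes were called higher in Nicol-/- and 9.52% in Ros1-/-. The median difference of the 9 was 0.21 in Nicol-/- and 0.03 in Ros1-/-. The gene 4930532M18Rik (-1.0 in Nicol-/-) was called lower there once Nicol+/- replicate 3 was left out (-1.35, limma adjusted p = 0.0349). Dhx9, an RNA helicase gene, was called lower in Ros1-/- (-0.43) without Nicol-/- replicate 3 (limma adjusted p = 0.00478) and in the fit of the 6 libraries compared (0.00827), but not in the fit of all 9 (0.0712). Within 1000 kb, 12 genes were tested, and 3 rose and none fell in Nicol-/-, while 3 rose and 1 fell in Ros1-/-, namely Lamc1, a laminin gene named here after its values were seen. The 3 that rose within 500 kb were Glul, Rgsl1 and E330020D12Rik in both knockouts. When replicate numbers entered as a block in the 6 Nicol libraries, 1 of them (E330020D12Rik) was still called in Nicol-/-.

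Glul, which encodes glutamine synthetase and begins 6.9 kb beyond Teddm1a, is an abundant gene in this tissue. Nicol-/- libraries held 3384.4, 2874.2 and 2585.9 RPKM of Glul, Ros1-/- libraries 3186.0, 3140.5 and 3205.5 RPKM, and Nicol+/- libraries 1690.4, 2051.7 and 1700.2 RPKM. All 6 knockout libraries lay above all 3 controls, as did 17.5% of tested genes in Nicol-/- and 22.5% in Ros1-/-, with a difference of 0.70 (SE 0.14, limma adjusted p = 0.0103) in Nicol-/- and 0.81 (SE 0.14, limma adjusted p = 0.00428) in Ros1-/-. In the blocked fit of the 6 Nicol libraries the Glul difference was 0.70 with an adjusted p of 0.0833. On the other side, Rgsl1, a relative of the regulators of G protein signalling, lies 2.2 kb from Teddm2 and was low throughout, at 1.27, 1.27 and 1.15 RPKM in Nicol-/-, 1.49, 1.09 and 1.71 RPKM in Ros1-/- and 0.68, 0.569 and 0.643 RPKM in Nicol+/- libraries. Its difference was 0.45 (limma adjusted p = 0.0377) in Nicol-/-, where it was no longer called without any 1 of the 6 Nicol libraries (adjusted p 0.0543 to 0.0919) or in the blocked fit (adjusted p = 0.13), and 0.57 (limma adjusted p = 0.0141) in Ros1-/-, where it was not called without Ros1-/- replicate 1 (adjusted p = 0.0615) or replicate 3 (adjusted p = 0.052). The lncRNA gene E330020D12Rik, 435.3 kb away, was at 10.3, 9.44 and 10.3 RPKM in Nicol-/-, 13.2, 13.2 and 14.3 RPKM in Ros1-/- and 5.84, 6.32 and 6.97 RPKM in Nicol+/- libraries, with differences of 0.58 (limma adjusted p = 0.00192) and 0.98 (limma adjusted p = 6.39e-05). Npl, an enzyme gene of sialic acid breakdown 299.8 kb away, was not called but was highest, at 76.8 RPKM, in the same library as Teddm1b, Nicol-/- replicate 1, against at most 47.5 RPKM elsewhere.

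**Figure D5:**
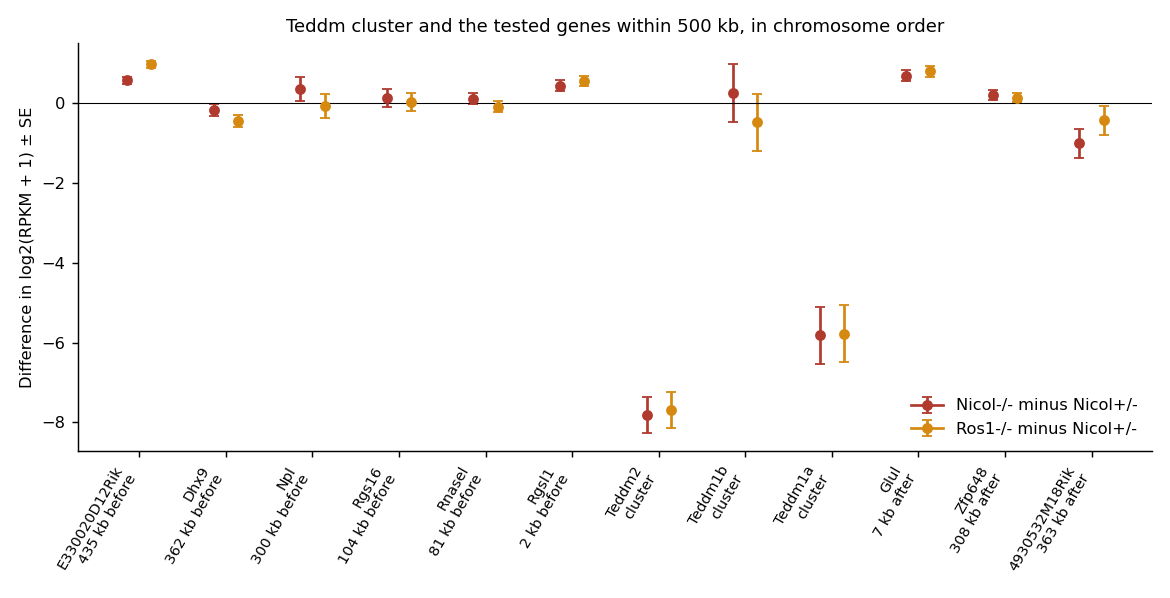
Difference in log2(RPKM + 1) from Nicol+/- (points, with the SE) for the 3 Teddm genes of chromosome 1 and the 9 tested genes within 500 kb, in chromosome order, for Nicol-/- and Ros1-/-. Teddm2 and Teddm1a lie between -7.81 and -5.78, while Teddm1b between them and the flanking genes lie between -1.0 and 0.98.

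The Tmem45 genes, relatives of the family elsewhere in the genome, were low in all genotypes. Tmem45a averaged 1.69 ± 0.0832 RPKM in Nicol-/-, 1.08 ± 0.291 RPKM in Ros1-/- and 1.02 ± 0.13 RPKM in Nicol+/-, and Tmem45b averaged 1.39 ± 1.26, 1.81 ± 0.3 and 0.831 ± 0.838 RPKM in the same genotypes (SD, n = 3 each). Neither was called by limma in any comparison, and Tmem45a2 was at most 0.113 RPKM and was not tested. The difference of Tmem45a in Nicol-/- was 0.41 (SE 0.13, limma adjusted p = 0.0554).

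Among 15 genes known from the IS, 13 fell, 1 rose and 1 was not called in each knockout. Of all tested genes, 11.9% were called lower in Nicol-/- and 13.3% in Ros1-/-. This list and those below were chosen with earlier results of these data known, so their direction is no independent evidence. The median of the 15 was -5.23 in Nicol-/- and -5.87 in Ros1-/-, against -5.82 and -5.78 for Teddm1a and -7.81 and -7.69 for Teddm2. The strongest calls included Lcn8, a lipocalin, at 5.83 ± 3.27 RPKM in Nicol-/-, 4.48 ± 1.1 RPKM in Ros1-/- and 13760.1 ± 3506.6 RPKM in Nicol+/-, and Adam28, at 0.0561 ± 0.027, 0.103 ± 0.0449 and 863 ± 256 RPKM (SD, n = 3 each). Ggt1, a gamma-glutamyl transferase gene, rose by 0.71 in Nicol-/- and by 0.92 in Ros1-/-. In Nicol-/- it was not called in the blocked fit of the 6 Nicol libraries (limma adjusted p = 0.078), nor without Nicol-/- replicate 1 (0.0832), Nicol-/- replicate 3 (0.0753), Ros1-/- replicate 1 (0.052) or Ros1-/- replicate 2 (0.0502). Of 12 genes known from the caput, 2 fell, 2 rose and 8 were not called in Nicol-/-. In Ros1-/-, 1 fell, 1 rose and 10 were not called. The medians were 0.03 in Nicol-/- and 0.24 in Ros1-/-. Of all tested genes, 8.95% were called higher in Nicol-/- and 9.52% in Ros1-/-, besides the shares called lower given above. Against such shares, the caput counts are not read as specific to the caput. In the blocked fit of the 6 Nicol libraries, 2 caput genes were called in Nicol-/-. Crisp1, a sperm-binding secretory protein gene, was the caput gene that fell in both, with differences of -3.8 in Nicol-/- (not called without Nicol+/- replicate 3, limma adjusted p = 0.0681, or Nicol-/- replicate 1, 0.0513) and -4.7 in Ros1-/-, and Ces5a, a carboxylesterase gene, rose by 1.03 in both.

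Of 9 genes of the lumicrine pathway, 8 were tested. All 8 fell in Nicol-/-, where 11.9% of all tested genes were called lower, and 6 fell in Ros1-/-, where 13.3% were. In Ros1-/-, Gm1673 rose and 1 was not called. The falls include those of the targeted genes, Gm1673 in Nicol-/- and Ros1 in Ros1-/-, which the genotypes set beforehand. The medians, with these genes included, were -2.01 and -2.14. In the blocked fit of the 6 Nicol libraries, 6 of the 8 were called in Nicol-/-, without Ptpn6 (limma adjusted p = 0.123) and Spry4 (0.0594). With 1 library left out, 6 to 8 were called in Nicol-/-. Ptpn6 (0.0481 in the main fit) also lost its call with quantile normalization (0.0805) and without any 1 Nicol+/- library (0.0764 to 0.137). By RT-PCR, the paper reports that Ros1 and Ptpn6 were not compromised in Nicol-/- males, whereas both were called lower here. Etv4, an ETS factor gene, stood at 0.492 ± 0.129 RPKM in Nicol-/-, 0.537 ± 0.316 RPKM in Ros1-/- and 55.3 ± 8.57 RPKM in Nicol+/- (SD, n = 3 each), with differences of -5.23 and -5.21. The Etv5 difference was -5.06 in Nicol-/- and -5.87 in Ros1-/-. Gm1673 was listed at 0 in Nicol-/-, so its fitted difference there is set by the pseudocount and is not given, and its difference in Ros1-/- was 1.07. The Nicol+/- animals carry a single intact copy of that gene. Nell2, whose product is made in the testis, was at or below 0.394 RPKM in every library and was not tested.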

How the data were processed

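Single-ended RNA-seq reads of IS-caput epididymis (3 libraries per genotype, though the series text speaks of 4) were mapped to mm10 with TopHat 2.1.1, and RPKM values were calculated per gene with Cufflinks 2.2.1, per the authors. The deposited table gives an FPKM, here the RPKM because reads are single-ended, and a normalized count (a signal, not a raw count), both scaled between libraries by the authors. Between 97.8% and 98.6% of the normalized counts were whole multiples of 1 step per library (within 0.02), from which reads and depth were estimated. No count model was run.

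The members and gene lists were chosen with earlier results of these data known. limma 3.58.1 in R 4.3.3 fitted the 3 genotype means to log2(RPKM + 1), with a pseudocount of 1, a trend and 6 residual degrees of freedom, on the 13647 genes reaching 1 RPKM in 3 or more of the 9 libraries. P-values were adjusted by Benjamini-Hochberg over all tested genes of a comparison, at a threshold of 0.05. The fit was checked on simulated data. The labels do not say whether libraries of a genotype came from separate animals. The paper states at least 3 biological repeats for all its experiments, without naming these libraries. P-values here reflect only library-to-library spread, which may be technical if the libraries of a genotype share animals. Within-genotype correlations across genes were 0.966 to 0.99, and no 2 libraries shared more than 0.0109% identical values.

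Named were the 4 members, the 5 most similar genes of each, neighbours within 500 kb that were nearest, called or most abundant, the Tmem45 genes, the targeted genes, and up to 3 genes per list with the smallest p plus those against its direction. E330020D12Rik, Npl and Nell2 are named with values seen. Deviations of same-numbered Nicol-/- and Nicol+/- libraries correlated at 0.194, 0.103 and 0.243, each above 0.1, against at most 0.0598 for differently numbered ones. Differently numbered libraries of the 2 knockouts also passed 0.1, for example Ros1-/- replicate 2 with Nicol-/- replicate 1 (0.242). Such values therefore do not establish a pairing, and the labels do not say what the numbers mean. The replicate block was run as an alternative only, and Ros1-/- numbers did not pair by this rule. Alternatives were 2 other pseudocounts, filters, scalings, the normalized counts, fits of the 6 libraries compared, a robust variance model, the replicate block, and each library left out. The block in the 6 Nicol libraries alone was added after the data were seen. Sequences and gene models are from RefSeq (GRCm38.p6) and GENCODE M21; 24260 of 24346 genes matched RefSeq by gene ID. Python 3.11.15, Biopython 1.88 and matplotlib 3.10.9 were used. Intervals and limits from reads cover counting error only.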

Additional observations from a re-analysis of the deposited data

Results flagged for a closer look

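Of the 8 tested genes of the lumicrine pathway, 3 were called between the knockouts (Ros1-/- minus Nicol-/-), where 1.55% of all tested genes were called. Gm1673 was higher, being deleted in Nicol-/- and listed at 0 there, and Etv1 and Ros1 were lower. Etv1, an ETS factor gene, averaged 2.36 RPKM (SD 0.304) over the 3 Ros1-/- libraries and 5.32 RPKM (SD 1.14) over the 3 Nicol-/- libraries, and the difference was -0.90 (limma adjusted p = 0.0312). Ros1 itself, the gene targeted in 1 of the lines, averaged 8.54 RPKM (SD 0.678) over the 3 Ros1-/- libraries and 20.2 RPKM (SD 4.07) over the 3 Nicol-/- libraries, and the difference was -1.14 (limma adjusted p = 0.00989). Ros1 stayed called in 7 of 9 fits that each left out 1 library (adjusted p 0.0146 to 0.0662), not without Ros1-/- replicate 1 or 2. Etv1 stayed called in 4 of 9 (adjusted p 0.0371 to 0.141), not without Ros1-/- replicate 1, 2 or 3 or Nicol-/- replicate 1 or 2. Under the 10 other alternatives Ros1 stayed called in 10 and Etv1 in 7, Etv1 not with a pseudocount of 5 (-0.48, adjusted p = 0.0585), with no filter (0.0603) or in the fit of the 6 libraries compared (0.0587). The direction was the same throughout. None of the 3 Teddm genes tested was called in this comparison.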

How the results depend on the processing

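Teddm2 and Teddm1a stayed lower in both knockouts than in Nicol+/- under every alternative run (20 for Nicol-/- and 19 for Ros1-/-). Teddm2 ranged from -8.35 to -6.64 and from -8.16 to -6.6, its smallest falls coming with a pseudocount of 5 (-6.64 and -6.6), and Teddm1a ranged from -6.64 to -4.85 and from -5.96 to -5.53. Without 1 library, Teddm1b lay between -0.65 and 0.89 in Nicol-/- and between -0.78 and 0.08 in Ros1-/-, so its direction is not settled. In Nicol-/- against Nicol+/-, the count of genes called was 1732 in a fit of the 6 libraries compared and 1730 with the replicate block in the 6 Nicol libraries (981 lower, 749 higher), against 2849 (1628 lower, 1221 higher), and without 1 library it was 1472 to 2540. The blocked fit called 1 neighbour gene and 2 caput genes, and the caput count was 2 also with no filter and in the fit of 6 libraries, and 1 to 4 without 1 library (1 without Nicol+/- replicate 3, 2 without Nicol-/- replicate 2 or Ros1-/- replicate 1). For Ros1-/- against Nicol+/- the caput count was 6 with the replicate block over all 9 libraries, and 1653 to 3893 genes were called without 1 library, against 3109. Between Ros1-/- and Nicol-/-, 212 genes were called, 134 with no filter, 84 in the fit of the 6 libraries and 9 to 292 without 1 library (16 without Ros1-/- replicate 2, 31 without Nicol-/- replicate 1, 77 without Ros1-/- replicate 3). Leaving out Nicol+/- replicate 3 gave the lowest count in Nicol-/-, and leaving out Ros1-/- replicate 1 gave the lowest counts in both Ros1-/- comparisons. In the blocked fit, Glul, Rgsl1, Ggt1, Adam7, Clu, Ptpn6 and Spry4 lost their call in Nicol-/-, and no other count of a list moved by over 1.5 times. The cause of these shifts was not tested beyond the smaller number of libraries. A count test on reads was not run, since not all normalized counts were whole multiples of the step. Depth limits Teddm3 (0 to 2 reads) and the knockout levels of Teddm2 (14 to 67 reads).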
